A study of Mus musculus with 4 samples.

Results

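Trh encodes the precursor of thyrotropin-releasing hormone, and it was followed here across 4 arrays of mouse embryonic stem cells. It is 1 gene of the 17097 that the arrays named, and 1 probe set of the 45141 on the array measured it. The gene was selected from measured values: it was chosen because it differed by at least 2-fold in each of the 4 comparisons the design allows, so those differences are given as a description and none of them was tested. The cells were J1 embryonic stem cells, a pluripotent line, grown without feeder cells in serum and LIF, and per the labels they were iP14 cells without or with doxycycline. One factor was PRDM14, a transcriptional regulator with a PR domain that acts in pluripotent and germ cells, overexpressed on the arrays called here "with PRDM14" and not on the others. The other factor was a combined shRNA knockdown of Tet1 and Tet2, whose enzymes oxidise methylated cytosine, and its control was a scramble sequence, in cells that the labels also call wild type. Crossing both factors gave 4 groups, namely scramble and knockdown cells, each without and with PRDM14, with 1 array of total RNA per group. No label describes doxycycline on cells without PRDM14 overexpression, so the drug and PRDM14 cannot be told apart, and the labels do not say whether the knockdown line was 1 clone. The question of the series was which part TET1 and TET2 play when PRDM14 regulates transcription.

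Thyrotropin-releasing hormone is a tripeptide cut from repeated copies within a larger protein. Prohormone convertases cut that protein, carboxypeptidases trim the ends, and the peptide is then cyclised at its N terminus by glutaminyl cyclase and amidated at its C terminus. In the hypothalamus the hormone makes the pituitary release thyrotropin, and thyroid hormone represses Trh in return. Its receptors couple to Gq and phospholipase C, and a membrane peptidase breaks the peptide down.

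The stretch of Trh promoter before the start site is shown because the series concerns methylation of cytosines and because a control element known from hypothalamic work on Trh lies in it. RefSeq places these 250 bases at chr6:92244651-92244900 on the minus strand of build GRCm38.p6. Capitals mark TGACCTCA, the letters of the element known as site 4, which thyroid hormone receptors and CREB are known to bind, and a TATA-like TATAAG.
Trh promoter: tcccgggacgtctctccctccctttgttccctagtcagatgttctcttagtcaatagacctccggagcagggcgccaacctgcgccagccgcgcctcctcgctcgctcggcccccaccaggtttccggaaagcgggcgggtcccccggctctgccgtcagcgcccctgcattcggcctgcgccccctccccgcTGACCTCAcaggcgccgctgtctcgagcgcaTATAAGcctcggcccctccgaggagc
The stretch held 25 CpG dinucleotides, the target of DNA methylation, against a median of 6 over 32851 RefSeq promoters of the same length, and 89.3% of those promoters held fewer. Its GC content was 68.8%, against a median of 52.4%. Both medians take in all these promoters, whatever the level of their genes in these cells, so they are not like for like with Trh. TGACCTCA began 57 bases before the start site, and 1.94% of all promoters held it on either strand. TATAAG began 26 bases before the start site, and 6.65% of promoters held it on either strand. The full cAMP response element TGACGTCA, present in 1.55% of promoters, and the PRDM14 motif GGTCTCTAA, present in 0.24%, were not found in this window on either strand. The searched motifs do not overlap one another in it. A match of letters is a description, and neither methylation nor protein binding was measured here.

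Trh was highest with PRDM14 in scramble cells and lowest in knockdown cells without it. The log2 signal was 6.93 in scramble cells, 9.21 in scramble cells with PRDM14, 5.78 in knockdown cells and 7.26 in knockdown cells with PRDM14. The 2 levels in the middle of that order, 6.93 and 7.26, lay close together, 0.33 apart, and 19.5% of the genes measured differed at least as much between those arrays. The other steps in the order were larger than 2-fold. The expression filter, the median of all named values, was 5.40, and Trh was above it on all 4 arrays but by only 0.39 on the knockdown array. With 1 array per condition there is no spread between cultures to set these values against, and their precision is limited by that number. Trh also has a single probe set, so no second probe set could check it. In a bulk sample fewer cells with the transcript and less transcript per cell cannot be told apart.

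**Figure D1:**
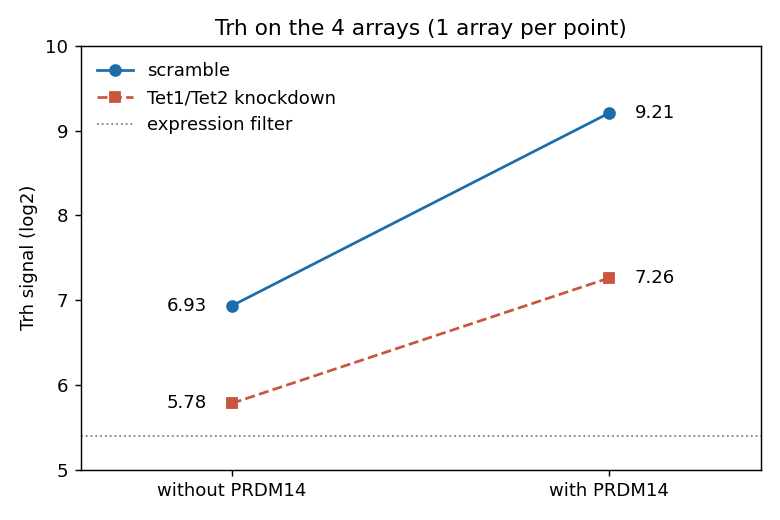
Trh signal (log2, vertical axis) on the 4 arrays, without and with PRDM14 on the horizontal axis, for scramble (circles, solid line) and Tet1/Tet2 knockdown (squares, dashed line); each point is 1 array, there are no error bars, and the dotted line is the filter at 5.40. Both lines climb to the right, and the knockdown line lies below the scramble line throughout.

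Trh was higher with PRDM14 in both backgrounds. In scramble cells it went from 6.93 to 9.21, a log2 difference of 2.28 or 4.85-fold, the 10th largest higher difference among 10366 genes. In knockdown cells it went from 5.78 to 7.26, a difference of 1.48 or 2.79-fold, again the 10th largest among 10311 genes. As background, 2.09% of genes were called in scramble cells and 0.63% in knockdown cells, a call being a 2-fold difference with the higher array at or above the filter. These 2 comparisons have no array in common, and 19 genes were called in both, which is 8.76% of the 217 called in scramble cells and 29.2% of the 65 called in knockdown cells. Of the 19, 10 were higher in both, Trh among them, 7 were lower in both and 2 went opposite ways. For scale, probe sets of 1 gene disagreed over the same difference with a pooled SD of 0.22 in scramble and 0.15 in knockdown cells, a spread that covers neither cultures nor arrays.

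Trh was lower on the knockdown arrays in both PRDM14 states. Without PRDM14 it went from 6.93 to 5.78, a log2 difference of −1.15 or 2.22-fold, the 28th largest lower difference among 10351 genes. With PRDM14 it went from 9.21 to 7.26, a difference of −1.95 or 3.86-fold, the third largest lower difference among 10322 genes, of which 8 differed as much in either direction. The background was 1.06% of genes called without PRDM14 and 1.1% called with it. These comparisons likewise share no array, and 21 genes were called in both, 19.1% of 110 and 18.4% of 114. Only 12 of the 21 kept their direction, 4 higher and 8 lower in both, Trh among the 8. Probe sets of the same gene disagreed here with a pooled SD of 0.21 without and 0.16 with PRDM14.

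**Figure D2:**
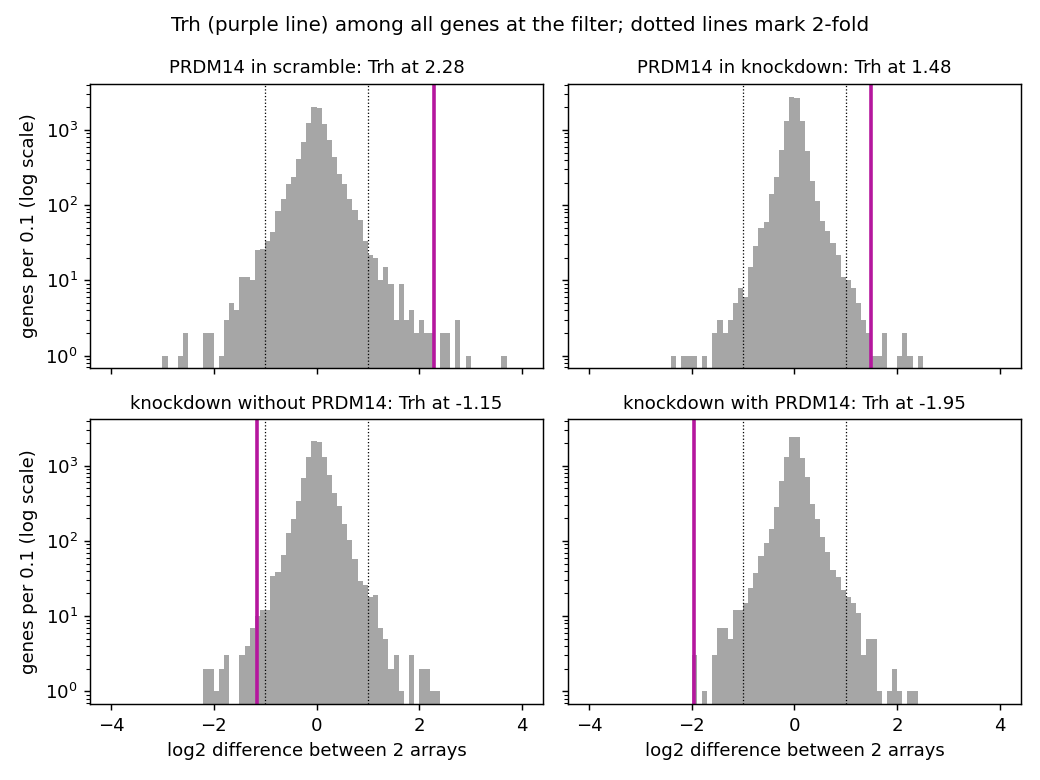
Log2 differences of all genes at the filter (grey, number of genes per 0.1 on a log axis) in the 4 comparisons, with Trh as a purple line and 2-fold as dotted lines. Trh lies far to the right in both PRDM14 comparisons, at 2.28 and 1.48, and to the left in both knockdown comparisons, at −1.15 and −1.95.

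The conditions that oppose each other in both factors were furthest apart. Between the scramble array with PRDM14 and the knockdown array without it Trh differed by 3.43, or 10.8-fold, and no other of 10307 genes differed as much between those 2 arrays. The distance follows from the 4 levels and is no further evidence. The same holds for the 4 comparisons, of which any 3 fix the fourth.

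The PRDM14 difference in Trh was smaller in knockdown than in scramble cells. It was 1.48 against 2.28, so the difference of the differences was −0.80, and the knockdown value was 65% of the scramble value on the log2 scale. Among 10519 genes, 458 (4.35%) had a difference of differences at least as large in either direction. Averaged over both backgrounds the PRDM14 difference was 1.88 (3.68-fold), and averaged over both PRDM14 states the knockdown difference was −1.55 (2.93-fold lower). No replicate exists against which the −0.80 could be tested, and the low level of Trh on the knockdown array, close to the filter, enters the smaller of the PRDM14 differences. Whether a compression of low signals contributes was not tested.

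Of the 10076 genes measurable in all 4 comparisons, 3 (0.0298%) were called in all of them, and Trh was the only 1 of them with the same direction in both backgrounds. The others were Calcoco2, an adaptor of selective autophagy, and Anxa2, a membrane-binding annexin. Calcoco2 read 7.88 in scramble cells, 9.51 in scramble cells with PRDM14, 9.11 in knockdown cells and 7.55 in knockdown cells with PRDM14. Its PRDM14 difference was thus 1.63 in scramble and −1.56 in knockdown cells. Anxa2 read 7.18, 8.49, 8.61 and 7.44 in the same order, with PRDM14 differences of 1.31 and −1.17. In these 2 genes the PRDM14 difference turned its sign with the knockdown, whereas in Trh it kept it. Among genes just inside the limit Anxa2 had a smallest difference of 1.05 and Trh of 1.15, and just outside it Sycp3, a meiotic chromosome protein, had 0.93 and Meioc, a meiosis regulator, 0.87.

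**Figure D3:**
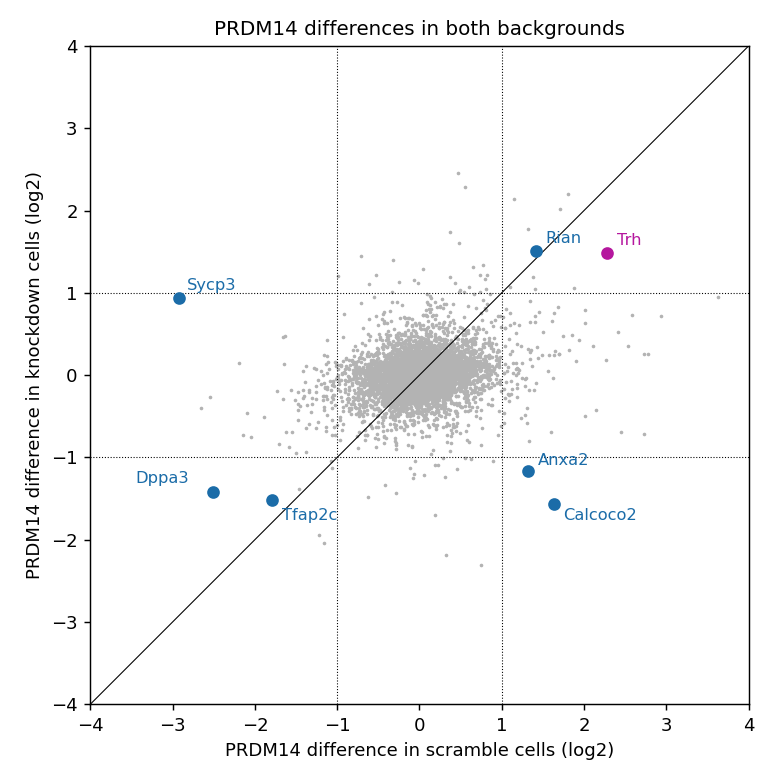
PRDM14 difference (log2) in knockdown cells against that in scramble cells for all genes at the filter (grey), with 7 genes labelled, the diagonal of equal differences and dotted lines at 2-fold. Trh and Rian lie in the upper right corner, Dppa3 and Tfap2c in the lower left, and Calcoco2 and Anxa2 in the lower right.

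With a 1.5-fold limit 21 genes (0.208%) were called in all 4 comparisons, and 3 of them had the signs of Trh: Trh, Rian and Tet2. Dppa3 and Zc3hav1 had exactly the opposite signs, 11 reversed both effects, 3 kept 1 sign throughout and 2 had other combinations. Among the 11, Sycp3 and Meioc had each sign opposite to that of Calcoco2. Tet2 is itself a target of the knockdown. It read 8.46, 9.33, 7.50 and 8.15, in the order used for Calcoco2, and a second probe set differed in the same directions with sizes of 0.20 to 0.58. The probe set for Prdm14 read 4.53, 4.83, 4.35 and 4.61, below the filter throughout, and did not check the PRDM14 labels. Directions of PRDM14 differences therefore rest on the labels.

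The genes whose levels over the 4 arrays ran most like those of Trh were found by centring each gene on its own mean and taking the root mean square distance from Trh in log2 units. With 4 points that share arrays the values are descriptions only. Rian, a noncoding RNA of the imprinted Dlk1-Dio3 region, was nearest at 0.49 (Pearson r = 0.96 over 4 arrays), and Manba, the lysosomal beta-mannosidase, followed at 0.56 (r = 0.94). Rian did not keep first place in every alternative: Manba was nearest with averaged probe sets and without the scramble array, Otx2 without the scramble array with PRDM14, and Ifitm3 without the knockdown array. For comparison, Trh itself lay 1.23 from a flat profile. Rian read 7.23, 8.64, 6.40 and 7.90, in the same order, and its PRDM14 differences of 1.41 and 1.51 were nearly equal. Of its 4 probe sets a second gave 1.34 and 1.37, and the lowest in each background gave 0.14 and 0.08. For the knockdown without and with PRDM14 Rian had −0.83 and −0.73, and the second probe set −0.65 and −0.61. The remaining probe sets gave 0.02 and 0.09, and 0.09 and −0.08. Manba read 7.61, 8.60, 6.46 and 7.05 and was called lower in both knockdown comparisons, at −1.15 and −1.55.

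The other 6 of the 8 nearest genes were less close, between 0.61 and 0.66. They were Epop, a partner of Polycomb and elongin complexes, Spink1, a trypsin inhibitor, Tet2, Foxd3, a forkhead factor of pluripotent cells, Hmgxb4, an HMG-box protein, and Irak3, an inhibitor of Toll-like receptor signalling. They had r between 0.88 and 0.97 with Trh. Epop and Spink1 shared the high value on the scramble array with PRDM14, 6.42 and 6.54, but read below the filter on the other 3 arrays, and their knockdown difference without PRDM14 had the opposite sign to that of Trh, at 0.40 and 0.33. Foxd3 read 6.15, 7.56, 5.97 and 6.62. Hmgxb4 was called higher with PRDM14 in both backgrounds on its brightest probe set, at 1.41 and 1.04, while its other probe sets gave at most 0.18. Irak3 read 6.20, 7.54, 5.95 and 6.23, so its PRDM14 difference of 0.28 in knockdown cells was small. When probe sets were averaged within genes, 4 of the 8 stayed among the nearest. Of the 8, 6 had a promoter in the RefSeq table, with 0 (Rian) to 51 (Tet2) CpG in 250 bases, taking the start site with the most. Their median was 19 against 6 over all genes, which include genes below the filter, so the 2 medians are not like for like. Other start sites of Hmgxb4 and Irak3 held 1 and 6.

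Over all 4 arrays, the gene nearest to the mirror image of Trh was closer than any gene to Trh itself. This order turned without the knockdown array, where Ifitm3 lay 0.072 from Trh and Dppa3 0.108 from the mirror image. Without the scramble array with PRDM14 it held, but between other genes, as Otx2 lay 0.082 from Trh and Slit2 0.021 from the mirror image. Dppa3, the nearest over all 4, also called Stella, is known to protect methylated cytosines from oxidation in the early embryo and is a marker of primordial germ cells. It read 9.68 in scramble cells, 7.17 with PRDM14, 10.53 in knockdown cells and 9.12 with PRDM14 there. These levels lay 0.11 from the Trh profile with its sign turned, with r = −0.996. Its differences were −2.50 and −1.41 for PRDM14 and 0.86 and 1.95 for the knockdown, where Trh had 2.28, 1.48, −1.15 and −1.95. The sum of both log2 signals varied by 0.29 over the 4 arrays. Dppa3 missed the rule that chose Trh through its difference of 0.86, and it too has a single probe set.

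Of the other mirror genes, Zc3hav1, an antiviral zinc finger protein, lay at 0.45, Dusp4, which dephosphorylates ERK, at 0.49, and Tfap2c, a transcription factor of germ cell precursors and trophoblast, at 0.54. Zc3hav1 read 7.78, 6.28, 8.44 and 7.50 on its brightest probe set, while its other probe sets differed by at most 0.20. Dusp4 read 7.45 on the scramble and 7.48 on the knockdown array, so that without PRDM14 it did not share the knockdown difference. Tfap2c had PRDM14 differences of −1.79 and −1.51, and a second probe set gave −1.86 and −1.07. Its knockdown differences were 0.38 without and 0.655 with PRDM14. The second probe set gave −0.14 and 0.65, so without PRDM14 it had the opposite sign. Within 0.5 of the profile there was 1 gene of 10518 for Trh and 3 for its mirror image.

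**Figure D4:**
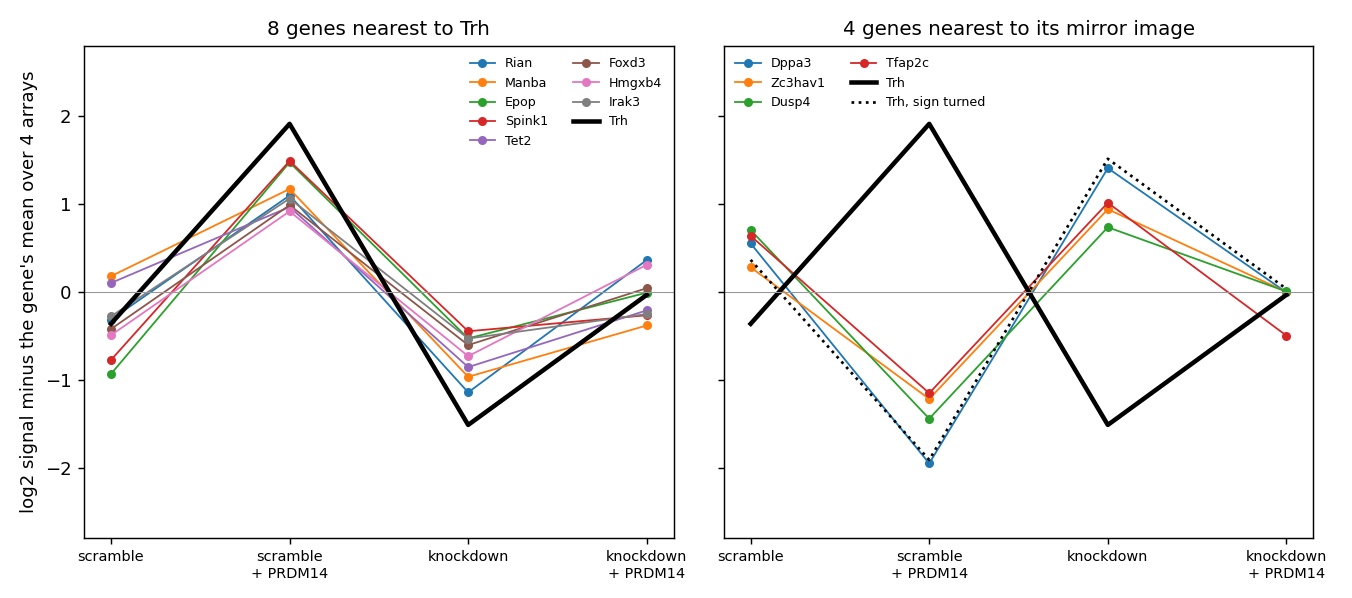
Log2 signal minus each gene's mean (vertical axis) on the 4 arrays for the 8 genes nearest to Trh (left) and the 4 nearest to its mirror image (right), 1 line per gene, with Trh in black and Trh with its sign turned dotted. Dppa3 lies almost on the dotted line, 0.11 from it, while the nearest gene at left, Rian, lies 0.49 from Trh.

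Few genes of the TRH pathway were called, as few genes were called at all. The 6 lists counted here as the TRH pathway include 26 measured precursors of other neuropeptides, 8 of them at the filter. In these 6 lists 99 genes were sought, 86 were named on the array and 45 reached the filter on at least 1 array. One of them, Klf10, was called lower in scramble cells with PRDM14, which is 2.27% of the 44 measurable there against 2.09% of all genes. In knockdown cells 0 of 44 were called for PRDM14 against 0.63%. For the knockdown 1 of 45 (2.22%), again Klf10, was called lower without PRDM14 against 1.06%, and 0 of 44 with PRDM14 against 1.1%. The median log2 differences of these genes were 0.012, 0.0027, −0.0041 and −0.0035 in the 4 comparisons as ordered here, against 0.0020, −0.00095, 0.0079 and 0.0029 over all genes. Counts this close to the background are no result about the pathway.

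Among the enzymes that process the precursor, 6 of 13 measured genes reached the filter and none was called. With a background of 0.63% to 2.09% of genes, a count of 0 among so few is no result about these enzymes. Furin, a convertase of the secretory pathway, read between 6.09 and 6.45 on the 4 arrays, and Pcsk6, another convertase, between 6.85 and 7.08. Qpctl, a glutaminyl cyclase of the Golgi, read between 5.43 and 5.65. Among those at the filter the largest difference in any comparison was −0.24, for Furin. Pam, the amidating enzyme, named here for its role, read between 6.02 and 6.12. The convertase Pcsk1 and the carboxypeptidase Cpe, which neuroendocrine cells use on the precursor, stayed below the filter, with Pcsk1 between 4.64 and 4.89 and Cpe between 3.32 and 3.81, the latter with a difference of 0.50 for PRDM14 in knockdown cells.

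No receptor or breakdown gene was called, with 3 of 5 at the filter. Trhr, the main pituitary receptor, read between 3.66 and 3.83 and Trhde, the degrading membrane peptidase, between 3.20 and 3.23, both below the filter. The second receptor gene, Trhr2, read between 5.95 and 6.12, Pgpep1, a cytosolic pyroglutamyl peptidase, between 6.46 and 6.78, and Prep, a prolyl peptidase, between 7.79 and 7.91. Of 12 measured genes of receptor signalling 8 reached the filter and none was called. The background was 0.63% to 2.09% of genes, so that counts of 0 among so few are no result about these lists. Plcb4, a phospholipase C, differed most, at −0.69 for PRDM14 in scramble cells, followed by Gnaq, the Gq alpha subunit, at −0.52, and the arrestin Arrb2 at 0.47 for the knockdown without PRDM14. On the pituitary and thyroid list 5 of 11 reached the filter, and the largest difference was −0.28, for the thyrotropin receptor Tshr.

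**Figure D5:**
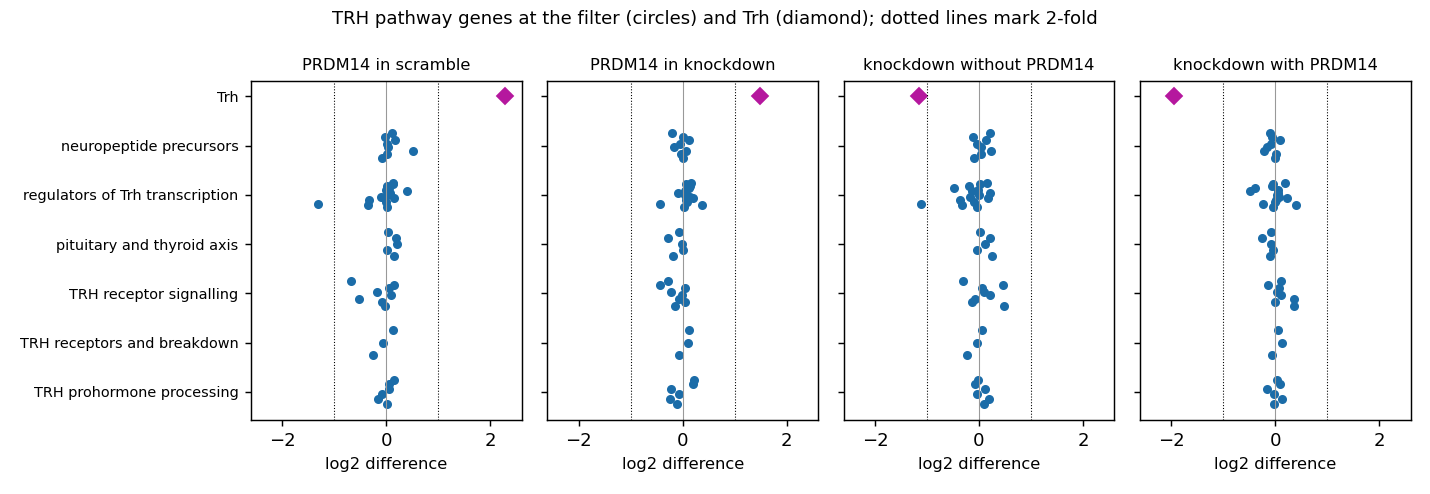
Log2 differences (horizontal axis) of the genes of 6 TRH pathway lists that reached the filter (circles, 1 per gene) and of Trh (diamond) in the 4 comparisons, with 2-fold as dotted lines. Trh lies outside the dotted lines in every panel, and Klf10, at −1.32 and −1.11, is the only circle that does so.

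Of the genes that regulate Trh in the hypothalamus, 15 of 19 measured reached the filter. Klf10, a TGF-beta-induced zinc finger factor, read 8.47 in scramble cells, 7.15 with PRDM14, 7.36 in knockdown cells and 6.92 with PRDM14 there. It was high on the scramble array and low on the other 3, a pattern unlike that of Trh (r = −0.27 over 4 arrays). Sp1, a general activator, read 9.13, 9.52, 8.99 and 9.04, and its largest difference was −0.48, for the knockdown with PRDM14. Stat3, the factor through which leptin and LIF signal, was at −0.48 and −0.40 for the knockdown, and Creb1, the cAMP response factor, at −0.35 and 0.37 for PRDM14. The thyroid hormone receptors, named for their role, were not called: Thra read between 6.33 and 6.45 and Thrb between 5.51 and 5.83.

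No other neuropeptide precursor was called in any comparison. Of 26 measured, 8 reached the filter on at least 1 array. The background was 0.63% to 2.09% of genes, so that a count of 0 among so few is no result about these precursors. Nmb, the neuromedin B precursor, differed most, at 0.51 for PRDM14 in scramble cells, and was at 0.07 in knockdown cells. Ucn, the urocortin precursor, followed with 0.21 and Npy, of neuropeptide Y, with −0.18 as their largest differences. The precursors below the filter cannot be judged from these arrays.

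The measured neighbours of Trh on the chromosome differed by 0.83 at most. By gene order in the GRCm38.p6 table the 4 nearest measured genes on 1 side are Rbsn, Mrps25, Nr2c2 and Fgd5, and on the other Prickle2, Adamts9, 9530026P05Rik and Magi1. Of these 8, 6 reached the filter and 0 were called, where the background was 2.09%, 0.63%, 1.06% and 1.1% of genes, so that a count of 0 among so few is no result about the neighbours. Mrps25, a mitochondrial ribosomal protein, had 0.70 and 0.21 for PRDM14 and 0.39 and −0.09 for the knockdown, so the signs matched those of Trh except for the knockdown without PRDM14. Fgd5, an exchange factor of endothelial cells, had the largest value, 0.83 for the knockdown with PRDM14, opposite in sign to Trh. The largest difference of Rbsn, the nearest measured gene on its side, was −0.28.

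The arrays carried the marks of embryonic stem cells in every condition. All 10 measured markers, among them Pou5f1 (11.10 to 11.35) and Nanog (9.56 to 10.20), were above the filter on all 4 arrays and none was called, with the background of 0.63% to 2.09% given above. Their signs were mixed. Fgf4, a growth factor of the inner cell mass, had 0.92 and 0.03 for PRDM14 and 0.54 and −0.35 for the knockdown. Lin28a, an RNA-binding protein, had 0.69, 0.82, −0.24 and −0.11 in that order, Nanog 0.52, −0.39, 0.27 and −0.64, and Esrrb, a nuclear receptor, −0.51, −0.49, −0.54 and −0.52. Of 9 fibroblast markers 1, Dcn, reached the filter, between 5.47 and 5.60. Of 9 neuron markers 6 did, and Tubb3, a neuronal tubulin, was called, higher on the knockdown array at 1.06, where Trh was lower. That is 16.7% of the 6 against 1.06% of all genes, and the median of the 6 was 0.13. A count of 1 among so few is no result about the list. Of 8 trophectoderm markers 4 reached the filter. Krt18, an epithelial keratin, was called higher on the knockdown array with PRDM14, at 1.15 for PRDM14 and 1.35 for the knockdown. That is 25% of the 4, against 0.63% and 1.1% of all genes, and the medians of the 4 were 0.33 and 0.29. Here too 1 gene among so few is no result about the list. Of 8 primitive endoderm markers 4 reached the filter and none was called, while Gata4, Sox17, Sox7 and Foxa2 did not reach it. Lama1, a laminin chain, had 0.93 and 0.23 for PRDM14 and 0.08 and −0.62 for the knockdown. In the same order as for Klf10, the median level of the primitive endoderm list was 5.05, 5.33, 4.97 and 4.98, below the filter throughout. Single values ran from 4.09 to 5.94. This median was highest on the scramble array with PRDM14, as were Trh and the medians of the stem cell and neuron lists. The part of these lists in the Trh differences was not tested. The medians were 10.15, 10.45, 10.35 and 10.18 for the stem cell list, 4.13, 4.14, 4.21 and 4.08 for fibroblasts, 6.52, 6.79, 6.74 and 6.64 for neurons and 5.19, 5.22, 5.33 and 5.43 for trophectoderm.

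The medians of the 4 arrays lay between 5.09 and 5.11. The scramble array stood furthest from the mean of the others, at a root mean square of 0.28 over genes, then the scramble array with PRDM14 at 0.26, with 0.20 for both knockdown arrays. Trh differed 2.79-fold between the knockdown arrays with and without PRDM14 and 3.86-fold between the arrays with PRDM14, and neither value uses the scramble array. The values that do are the PRDM14 difference in scramble cells and the knockdown difference without PRDM14. Trh was chosen on all 4 of these differences, so none of them is further evidence. Measured from the mean of the other arrays, Trh lay at 2.55 on the scramble array with PRDM14 and at −0.49 on the scramble array. On the knockdown array it lay at −2.02, and on the knockdown array with PRDM14 at −0.05.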

How the data were processed

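Total RNA of 4 cultures was measured on Affymetrix 3′ arrays, 1 per condition, and groups were taken from the sample titles. The authors deposited log2 probe set signals on a common distribution, from 2.78 to 13.2; the log base was inferred from that range. Per the submitters' processing notes the software was Affymetrix Expression Console. Its version, how probes were summarised and background was corrected, and a genome build are each not given in the sources used here. Besides 104 controls, 28898 probe sets had 1 gene in the platform annotation, 551 had several and 15588 had none. Entrez identifiers of 28689 were found in the RefSeq table, and 0 symbols changed. A gene was represented by its brightest probe set by mean signal. The filter was the median of all named values, 5.40, and is no measure of background. A call was a 2-fold difference with the higher array at the filter, a size rule and not a test. Python 3.11.15 with pandas 2.3.3 and numpy 2.4.6 was used. The size rule and the likeness search were run on simulated data whose planted differences lay past 2-fold and were equal in both backgrounds. Such a run cannot show how they do close to the limit. Trh, the 6 pathway lists and the 5 marker lists were chosen with earlier results of these data known. Named genes were Trh, Prdm14 and Tet2, list members called or up to 3 per list with the largest difference, the 8 nearest and 4 mirror genes, genes called in all 4 comparisons, and 4 neighbours per side. Genes said to be named for their role, the nearest genes outside the limit, and others named beyond these were chosen after their values were seen. Alternatives were thresholds of 1.5- and 3-fold, no filter, values raised to the filter, the mean of probe sets, and arrays set to a common median or 75th percentile.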

Additional observations from a re-analysis of the deposited data

How the results depend on the processing

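No paired analysis was possible because each condition has 1 array and the labels carry no replicate numbers. The 20 alternative values of Trh (4 scalings or summaries for each of 5 differences) moved by less than the spread between probe sets. They were 2.28 to 2.29 and 1.47 to 1.48 for PRDM14, and −1.15 to −1.14 and −1.96 to −1.95 for the knockdown. For the difference of differences they were −0.81 to −0.80. Averaging probe sets and raising values to the filter could not change Trh, which has 1 probe set and lay above the filter throughout. The other settings shift whole arrays, whose medians already lay between 5.09 and 5.11. So small a movement therefore says little about how firm the Trh values are. Fewer or more genes were called by construction with another threshold: at 1.5-fold 849 and 290 for PRDM14 in scramble and knockdown cells, 527 and 448 for the knockdown without and with PRDM14, and 21 in all 4, and at 3-fold 52, 13, 21, 12 and 0. At 1.5-fold 2 pathway genes were called for PRDM14 in scramble cells, and at 3-fold 0 there and 0 for the knockdown without PRDM14. With the mean of probe sets 43 genes were called for PRDM14 in knockdown cells, and 4 of the 8 genes nearest to Trh stayed. With Pearson r as the measure 0 of the 8 stayed, since r ignores size and each of the 8 genes it chose was under 2-fold in all 4 comparisons. Leaving out 1 array kept 1 to 6 of the 8: 5 without scramble, 1 without scramble with PRDM14, 3 without knockdown and 6 without knockdown with PRDM14. Dppa3 stayed nearest to the mirror image in each of these but the second, where Slit2 replaced it. Of 93 alternatives 74 were taken as unchanged, which for counts meant a change of no more than 1.5 times. All 20 log2 differences of Trh are among these 74. The tally holds values that could not change, such as Trh with averaged probe sets, so it does not measure how firm the results are. Signal over background, which limits low values, was not determined.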
